A study of Mus musculus with 23 samples.

Results

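The ATF4-CHOP stress axis is described here through 10 genes chosen by name (Atf4, Atf3, Ddit3, Trib3, Ppp1r15a, Chac1, Ddit4, Sesn2, Cebpb and Gdf15), of which 9 were measured among 19938 genes. Each was read from the probe set with 1 gene symbol and the highest mean over 23 arrays, and each of the 9 had 1 such probe set. Gdf15, a secreted stress cytokine, matched no probe set in the probe table used here and was not analysed. RNA came from bone marrow-derived macrophages (BMDMs) of wild-type C57BL/6 mice. Marrow cells were cultured for 6 days in the growth factor M-CSF (10 ng/mL), which was then withdrawn, and treatment began 1 to 3 days later. Cells received stearic acid (SA) at 250 µM for 20 h (4 arrays), oleic acid (OA) at 250 µM for 20 h (4 arrays), SA for 5 h (4 arrays), OA for 5 h (4 arrays), lipopolysaccharide (LPS) at 1 ng/mL for 5 h (4 arrays) or bovine serum albumin (BSA) alone at 125 µM for 5 h (3 arrays). Both acids were carried on fatty acid-free BSA, 2 parts acid to 1 part protein, which is why BSA is the vehicle. No BSA concentration was found for the LPS arrays, so whether those cells also received the carrier is not known. For BSA and LPS the duration is 5 h in the sample labels but 4 h in the series text. None of the 23 arrays was a vehicle of 20 h. The labels speak of replicate wells and the series text of biological replicates, so the p-values below measure the spread between these samples, which may be technical.

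ATF4 is a transcription factor of the integrated stress response. Kinases that sense misfolded protein, lack of amino acids, double-stranded RNA or lack of haem phosphorylate eIF2alpha, which slows translation in general while the Atf4 mRNA is translated more. ATF4 then raises Ddit3, which encodes the transcription factor CHOP, and both act, often paired with C/EBP proteins, on genes for amino acid supply, redox balance, feedback and cell death. In macrophages the pathway is known for its response to endoplasmic reticulum stress, including that caused by saturated fatty acids. SA is a saturated acid, and OA has the same chain length with 1 double bond.

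The promoters of 5 members are shown because they hold the letters of an element that ATF4, CHOP or related leucine zipper factors are known to bind. RefSeq windows of GRCm38.p6 were found for all 10 members and searched from 250 bases before to 50 bases after the start site, on both strands, for the C/EBP-ATF response element TGATGNAA, the cAMP response element TGACGTCA and the AP-1 site TGANTCA. The first was found in 3 members (Atf3, Trib3 and Chac1), the second in 1 (Ppp1r15a) and the third in 1 (Ddit3). Of 27025 genes, 4.51% held the first in a window of this length, 2.03% the second and 8.97% the third, and no match in a member overlapped another. The sequences run 5′ to 3′ on the strand of the gene, end 30 bases after the start site, and carry the matches in capitals. They lie at chr10:127290543-127290822 (plus strand) for Ddit3, chr7:45526239-45526518 (minus) for Ppp1r15a, chr2:119350992-119351271 (plus) for Chac1, chr2:152344031-152344310 (minus) for Trib3 and chr1:191183304-191183583 (minus) for Atf3.
Ddit3: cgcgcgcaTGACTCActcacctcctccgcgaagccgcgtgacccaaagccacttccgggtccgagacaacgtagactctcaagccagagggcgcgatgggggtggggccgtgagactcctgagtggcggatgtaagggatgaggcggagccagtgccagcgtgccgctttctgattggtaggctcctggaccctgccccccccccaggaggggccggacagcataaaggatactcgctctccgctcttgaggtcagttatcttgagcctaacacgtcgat
Ppp1r15a: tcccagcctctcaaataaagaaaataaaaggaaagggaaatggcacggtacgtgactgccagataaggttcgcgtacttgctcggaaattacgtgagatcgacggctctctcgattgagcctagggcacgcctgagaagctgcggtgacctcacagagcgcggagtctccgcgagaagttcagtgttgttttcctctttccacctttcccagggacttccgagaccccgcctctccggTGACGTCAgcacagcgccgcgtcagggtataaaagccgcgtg
Chac1: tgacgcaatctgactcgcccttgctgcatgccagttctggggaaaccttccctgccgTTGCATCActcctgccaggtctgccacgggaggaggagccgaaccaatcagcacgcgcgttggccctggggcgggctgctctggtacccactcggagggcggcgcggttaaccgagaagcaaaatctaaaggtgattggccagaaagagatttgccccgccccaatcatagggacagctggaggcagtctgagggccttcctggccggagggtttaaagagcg
Trib3: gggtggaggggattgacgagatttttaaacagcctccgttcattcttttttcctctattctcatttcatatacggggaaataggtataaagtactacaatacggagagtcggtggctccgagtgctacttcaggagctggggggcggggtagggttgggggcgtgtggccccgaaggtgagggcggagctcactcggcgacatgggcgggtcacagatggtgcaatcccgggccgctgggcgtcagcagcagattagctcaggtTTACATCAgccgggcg
Atf3: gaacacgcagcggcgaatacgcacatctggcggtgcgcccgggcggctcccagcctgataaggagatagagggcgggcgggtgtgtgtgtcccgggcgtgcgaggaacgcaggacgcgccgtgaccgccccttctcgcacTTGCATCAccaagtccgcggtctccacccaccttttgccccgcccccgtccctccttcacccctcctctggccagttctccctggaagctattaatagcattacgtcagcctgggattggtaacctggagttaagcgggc
Counted from the start site, the match lay at bases -242 to -236 in Ddit3, -12 to -5 in Ppp1r15a, -193 to -186 in Chac1, 15 to 22 in Trib3 and -110 to -103 in Atf3. In Chac1, Trib3 and Atf3 the element stands on the opposite strand, so the capitals show its reverse complement. The windows of Atf4, Ddit4, Sesn2, Cebpb and Gdf15 held none of these letters, which says only that they are not in these windows.

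Values are log2 expression per probe set, so a difference of 1 is a doubling, and levels of different genes are not set against each other. Array medians lay between 3.98 and 4.12. All 11 measured macrophage markers were above the array median on all 23 arrays. Of markers of other cells, 1 of 7 for dendritic cells (Ccr7), 4 of 8 for neutrophils (S100a8, S100a9, Camp and Ltf), 2 of 7 for stroma (Col1a1 and Col1a2), 0 of 6 for lymphocytes and 0 of 4 for erythroid and mast cells were above it on all arrays. The mean of the macrophage list was 9.10 to 9.21 on 20 h SA arrays, against 9.96 to 9.97 on 20 h OA arrays, and 9.65 to 9.71 on 5 h SA arrays, against 10.03 to 10.06 on 5 h OA arrays. The part of this shift in the results below was not tested, and in bulk RNA fewer cells of a type and less RNA per cell cannot be told apart. Replicate 2 of 20 h SA stood apart, with a standard deviation of gene deviations from the group mean of 0.215, against 0.153 to 0.161 for the others of its group, and the counts of called members and list genes that rest on 20 h SA are given without it as well.

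Ddit3 separated SA from all other groups at both times. CHOP, its product, is the transcription factor that links prolonged endoplasmic reticulum stress to cell death. At 20 h, Ddit3 stood at 8.91, 8.81, 9.03 and 8.90 on the SA arrays, against 6.99, 6.95, 6.93 and 7.09 on the OA arrays. At 5 h it stood at 7.96, 7.85, 8.19 and 8.11 on the SA arrays, against 6.55, 6.44, 6.61 and 6.59 on the OA arrays. LPS arrays read 6.23, 6.34, 6.50 and 6.04, against 6.45, 6.79 and 6.73 on the BSA arrays. Every SA array lay above every array of the other treatments, and every 20 h SA array lay above every 5 h SA array. The mean was 4.78 times the vehicle mean after 20 h of SA, 2.59 times after 5 h, and 1.26 times after 20 h of OA, although for both 20 h values time and treatment cannot be told apart. Ddit3 (chr10:127290793-127296291) carries its AP-1 letters in the promoter shown above.

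Atf4 (chr15:80255184-80257545), the factor at the head of the axis, was higher in SA than in OA at both times. Its arrays read 8.78, 8.63, 8.91 and 8.86 in 20 h SA, against 7.76, 7.46, 7.71 and 7.69 in 20 h OA. At 5 h they read 8.60, 8.67, 8.72 and 8.71 in SA, against 7.78, 7.57, 7.68 and 7.62 in OA. LPS arrays gave 7.69, 7.82, 7.83 and 7.64, against 7.91, 7.98 and 8.12 in BSA. No SA array overlapped any array of another treatment, while the SA groups of 20 h and 5 h overlapped each other. Neither OA group overlapped BSA, and both lay below it, but at 5 h the difference did not pass by limma (adjusted p = 0.361). For the 20 h OA group, time and treatment cannot be told apart. Since ATF4 is controlled largely at translation, these mRNA values do not measure its protein.

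Ppp1r15a (chr7:45522917-45526268), which encodes GADD34, the regulatory subunit that leads a phosphatase to eIF2alpha and ends the stress response, had the widest gap between the acids of the 9 members. It stood at 7.74, 7.38, 7.85 and 7.53 on 20 h SA arrays, against 5.72, 5.44, 5.45 and 5.69 on 20 h OA arrays. At 5 h the SA arrays read 7.14, 7.05, 7.33 and 7.28, against 5.44, 5.51, 4.92 and 5.50 on the OA arrays. LPS arrays read 7.06, 7.20, 7.28 and 6.93, against 5.77, 5.65 and 5.83 on BSA arrays. LPS and 5 h SA overlapped each other and both lay wholly above BSA, so this member, unlike Ddit3, stood high in both.

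Trib3 (chr2:152337425-152344060) and Chac1 (chr2:119351242-119354326) are targets of ATF4 and CHOP. Trib3 encodes a pseudokinase that binds ATF4 and CHOP and dampens them, and Chac1 encodes an enzyme that degrades glutathione. Trib3 read 6.00, 5.67, 5.79 and 5.82 on 20 h SA arrays, against 4.29, 4.44, 4.75 and 4.77 on 20 h OA arrays. At 5 h it read 4.55, 5.01, 5.75 and 5.27 on SA arrays, against 4.47, 4.51, 4.19 and 4.47 on OA arrays. The 5 h SA arrays spread over more than 1 log2 unit, and their lowest lay just above the highest OA array. Chac1 was tighter, at 5.63, 5.45, 5.54 and 5.51 on 20 h SA arrays, against 4.59, 4.25, 4.42 and 4.68 on 20 h OA arrays. At 5 h Chac1 read 5.82, 5.76, 5.83 and 5.86 on SA arrays, against 4.75, 4.43, 4.35 and 4.70 on OA arrays. All SA arrays of Chac1 lay above all other arrays, and its 5 h SA group lay above its 20 h SA group without overlap. In LPS, Trib3 (4.44 to 4.70) and Chac1 (4.54 to 4.89) overlapped BSA (4.14 to 4.53 and 4.62 to 4.75).

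Cebpb (chr2:167688915-167690432), which encodes a C/EBP transcription factor that pairs with ATF4 and CHOP and is also induced by inflammatory signals, differed from the others in that LPS was the highest group. It read 7.04, 7.23, 7.39 and 7.03 on 20 h SA arrays, against 6.68, 6.46, 6.36 and 6.15 on 20 h OA arrays. At 5 h it read 7.32, 7.23, 7.72 and 7.57 on SA arrays, against 6.85, 6.78, 6.84 and 6.78 on OA arrays. The LPS arrays read 7.75, 7.69, 7.67 and 7.92, against 6.97, 7.12 and 7.07 on BSA arrays. SA lay above OA without overlap at both times, 5 h SA overlapped LPS, and 20 h SA overlapped BSA.

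Sesn2 (chr4:132492804-132510456) encodes a sestrin, a stress protein that senses leucine and restrains the growth kinase TORC1. Its arrays read 5.91, 5.40, 5.67 and 5.87 in 20 h SA, against 5.32, 5.04, 4.93 and 4.67 in 20 h OA. At 5 h they read 5.63, 5.33, 5.41 and 5.01 in SA, against 4.85, 4.94, 4.82 and 4.73 in OA. SA lay above OA without overlap at each time, while 5 h SA overlapped 20 h OA. LPS arrays, at 4.49 to 5.05, overlapped BSA arrays, at 4.49 to 4.67.

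Atf3 and Ddit4 barely varied. Atf3 (chr1:191170296-191183333), a factor induced by many stresses that represses inflammatory genes in macrophages, lay between 10.67 and 11.31 on all 23 arrays, high on a scale that ended at 12.94, and whether its signal was near saturation was not assessed. Its group means spanned 0.36, with 10.89, 10.91, 11.31 and 11.24 on 5 h SA arrays, against 10.88, 10.77, 10.78 and 10.75 on 5 h OA arrays. Replicates 3 and 4 of 5 h SA set the top of that range. At 20 h Atf3 read 10.94, 10.91, 10.92 and 10.92 on SA arrays, against 10.67, 10.74, 10.72 and 10.79 on OA arrays, so the acids did not overlap at either time although the gaps were small. Ddit4 (chr10:59949675-59951770), a TORC1 inhibitor also known as REDD1, lay between 3.79 and 4.57, around the array medians, and its group means spanned 0.28. Each of its neighbouring groups overlapped.

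**Figure D1:**
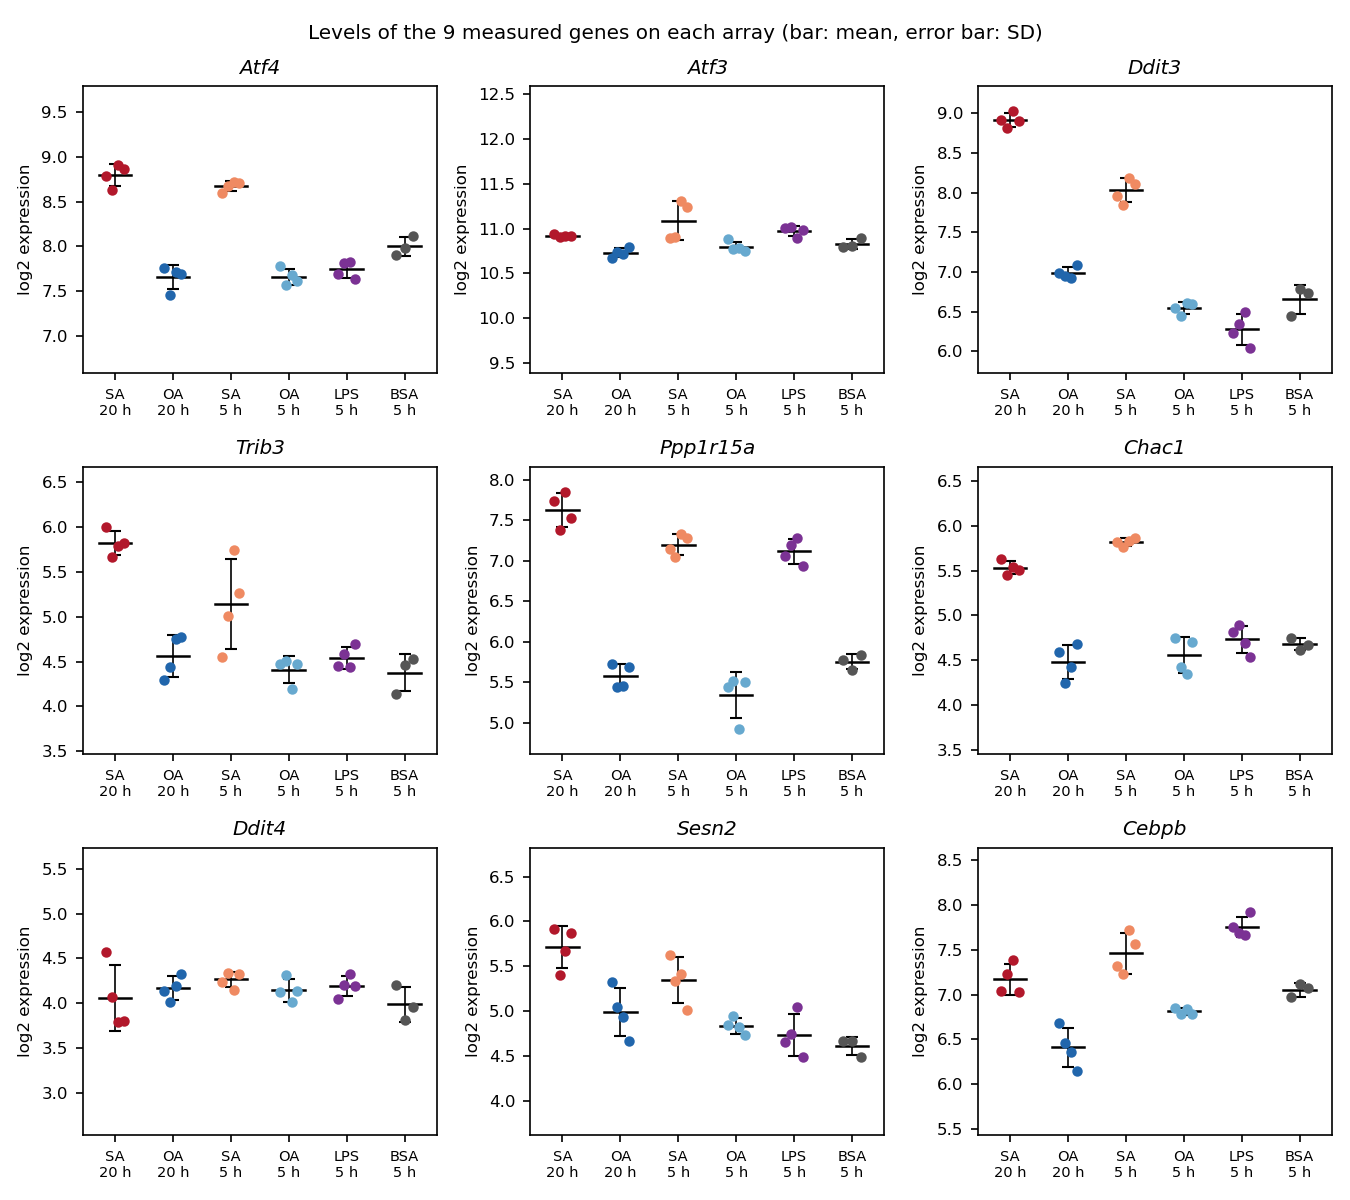
Log2 expression of the 9 measured members on each of 23 arrays (points), by group on the x axis, with group means as bars and SD as error bars. Ddit3 and Atf4 stood apart in SA, Ppp1r15a was high in SA and LPS, Cebpb was highest in LPS, and Atf3 and Ddit4 were nearly flat.

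The comparison of SA with OA asks how far the response depends on which acid was given, since both were at 250 µM on the same carrier. After 20 h, 7 of 9 members rose in SA and none fell, by limma with Benjamini-Hochberg adjustment over all 19938 genes at a threshold of 0.05, against 7.72% of all genes higher and 8.95% lower. Their median log2 change was 1.05, against 0.03 over all genes, and 8 of 9 did not overlap between the groups, against 20.2% of all genes. Ppp1r15a rose by 2.05 (SE 0.13, adjusted p = 7.71e-12) and Ddit3 by 1.92 (SE 0.10, adjusted p = 4.36e-13). Trib3 rose by 1.26 (SE 0.17), Atf4 by 1.14 (SE 0.09), Chac1 by 1.05 (SE 0.10), Cebpb by 0.76 (SE 0.11) and Sesn2 by 0.73 (SE 0.14), with adjusted p-values of 0.000525 or less. Atf3, at 0.19 (95% interval 0.02 to 0.37, adjusted p = 0.144), and Ddit4, at -0.11 (-0.38 to 0.16, adjusted p = 0.705), did not pass. Without replicate 2 of 20 h SA the count was again 7, with Ppp1r15a at 2.13 and Ddit3 at 1.95. Atf3 passed with a variance trend and robust moderation (adjusted p = 0.0271).

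After 5 h, 8 of 9 members rose in SA over OA and none fell, against 3.3% of all genes higher and 2.37% lower. The median change was 0.74, against 0.01 over all genes, and 8 of 9 members did not overlap, against 10.4% of all genes. Ppp1r15a rose by 1.86 (SE 0.13, adjusted p = 2.85e-10), Ddit3 by 1.48 (SE 0.10, adjusted p = 2.67e-10), Chac1 by 1.26 (SE 0.10, adjusted p = 5.62e-09) and Atf4 by 1.01 (SE 0.09, adjusted p = 1.04e-08). Trib3 rose by 0.74 (SE 0.17, adjusted p = 0.00764), Cebpb by 0.65 (SE 0.11, adjusted p = 0.000492), Sesn2 by 0.51 (SE 0.14, adjusted p = 0.0339) and Atf3 by 0.29 (SE 0.08, adjusted p = 0.0401). Ddit4 was at 0.12 (-0.15 to 0.39, adjusted p = 0.748). The Sesn2 call ended in 10 of 18 alternatives, among them leaving out replicate 1, 3 or 4 of OA (adjusted p = 0.0599, 0.0745 and 0.0951) or replicate 1, 2 or 3 of SA (0.128, 0.0652 and 0.0883). The Atf3 call ended in 8 of 18, among them leaving out replicate 2, 3 or 4 of OA (0.0924, 0.0877 and 0.104) or replicate 3 or 4 of SA (0.171 and 0.143), and Trib3 missed the threshold in the fit of these groups alone (0.0878).

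**Figure D2:**
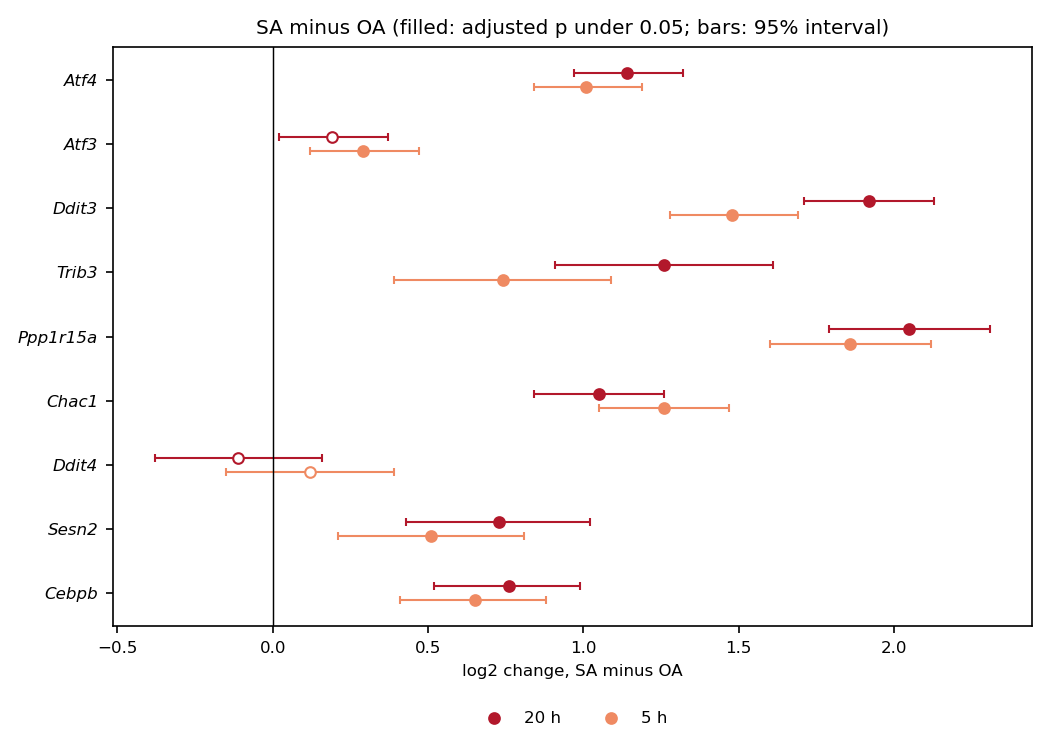
Log2 change of SA minus OA for the 9 members at 20 h and 5 h (x axis), with 95% intervals as bars and filled points where the adjusted p was under 0.05. Ppp1r15a and Ddit3 lay farthest to the right at both times, and the intervals of Ddit4 crossed 0.

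Whether the gap between the acids changed from 5 h to 20 h was tested with the interaction term. By limma, 0 of 9 members passed, against 4.98% of all genes called in either direction, and 2 of 9 had an unadjusted p under 0.05, against 14.6% of all genes. These were Ddit3, whose gap was 0.44 wider at 20 h (95% interval 0.15 to 0.73, adjusted p = 0.0796), and Trib3, whose gap was 0.52 wider (0.03 to 1.02, adjusted p = 0.301). Ddit3 passed with a variance trend and robust moderation (adjusted p = 0.031) and with quantile normalization (0.00621). Without replicate 3 of 5 h SA both passed, at adjusted p = 0.0498 for Ddit3 and 0.0406 for Trib3, and without replicate 2 of 20 h SA the count was again 0.

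Against the vehicle at 5 h, members rose in SA, and none passed in OA. In SA over BSA, 6 of 9 members rose and none fell, against 1.94% of all genes higher and 1.39% lower, and the median member change was 0.74, against 0.01. Ppp1r15a rose by 1.45 (SE 0.14, adjusted p = 1.72e-07), Ddit3 by 1.37 (SE 0.11, adjusted p = 1.07e-08) and Chac1 by 1.13 (SE 0.11, adjusted p = 2.95e-07). Trib3 rose by 0.77 (SE 0.18, adjusted p = 0.0161), Sesn2 by 0.74 (SE 0.15, adjusted p = 0.00531) and Atf4 by 0.67 (SE 0.09, adjusted p = 4.21e-05). Cebpb was at 0.41 (adjusted p = 0.0769), Atf3 at 0.26 (0.149) and Ddit4 at 0.28 (0.403). The Trib3 call ended without replicate 1 of BSA (0.125), without replicate 3 of SA (0.0615) or in the fit of these groups alone (0.155). Cebpb passed without replicate 2 of 5 h SA (0.0362), and Cebpb and Atf3 both passed with a variance trend and robust moderation (0.0247 for Cebpb, 0.0163 for Atf3) and with array weights (0.0329 and 0.037), which brought the count to 8.

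In OA over BSA, 0 of 9 members passed by limma, against 0.0702% of all genes called in either direction, and 2 of 9 had an unadjusted p under 0.05, against 5.66% of all genes. These were Atf4, at -0.34 (95% interval -0.53 to -0.15, adjusted p = 0.361), and Ppp1r15a, at -0.41 (-0.69 to -0.13, adjusted p = 0.66). Ddit3 was at -0.11 (-0.33 to 0.11), Chac1 at -0.13 (-0.36 to 0.10) and Trib3 at 0.03 (-0.35 to 0.41). The upper bounds for Ddit3 and Chac1 lay below the lower bounds of their SA changes, 1.15 and 0.91. For Trib3 the upper bound in OA, 0.41, lay above the lower bound in SA, 0.39. Because SA and OA were set against the same BSA arrays, these comparisons are not independent, and the direct test is the comparison of the acids given above.

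Under LPS at 1 ng/mL members moved in both directions. Whether the LPS cells also held BSA is not known, so LPS and carrier cannot be told apart here. Against BSA, 2 of 9 rose and 2 of 9 fell, against 9.22% of all genes higher and 13.2% lower. Ppp1r15a rose by 1.37 (SE 0.14, adjusted p = 1.96e-08) and Cebpb by 0.71 (SE 0.12, adjusted p = 8.58e-05). Ddit3 fell by 0.38 (SE 0.11, adjusted p = 0.0109) and Atf4 fell by 0.26 (SE 0.09, adjusted p = 0.0448). Sesn2 (0.12), Trib3 (0.16), Atf3 (0.15), Chac1 (0.05) and Ddit4 (0.21) did not pass. The Ddit3 call ended without replicate 2 or 3 of BSA (0.081 and 0.0564) and in the fit of these groups alone (0.062). The Atf4 call ended without replicate 2 or 3 of BSA (0.0901 and 0.217), without replicate 1 or 4 of LPS (0.101 and 0.115), after centring arrays on their median (0.174) and in the fit of these groups alone (0.0978).

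Set directly against LPS at 5 h, SA was higher for 5 of 9 members and lower for none, against 13% of all genes higher and 9.11% lower. Ddit3 was higher by 1.75 (SE 0.10, adjusted p = 6.29e-13), Chac1 by 1.09 (SE 0.10, adjusted p = 7.2e-09), Atf4 by 0.93 (SE 0.09, adjusted p = 4.37e-09), Sesn2 by 0.61 (SE 0.14, adjusted p = 0.0021) and Trib3 by 0.60 (SE 0.17, adjusted p = 0.0101). Ppp1r15a was at 0.08 (95% interval -0.18 to 0.34, adjusted p = 0.733), so any gap between SA and LPS lay within that interval, and Cebpb was at -0.30 (-0.53 to -0.07, adjusted p = 0.061). Without replicate 3 of 5 h SA, Trib3 no longer passed (0.0624) and Cebpb did (0.0183). Trib3 also missed in the fit of these groups alone (0.0529), and Cebpb passed after centring arrays on their median (0.0256), with a variance trend and robust moderation (0.0291) and without the dimmest genes (0.0443).

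**Figure D3:**
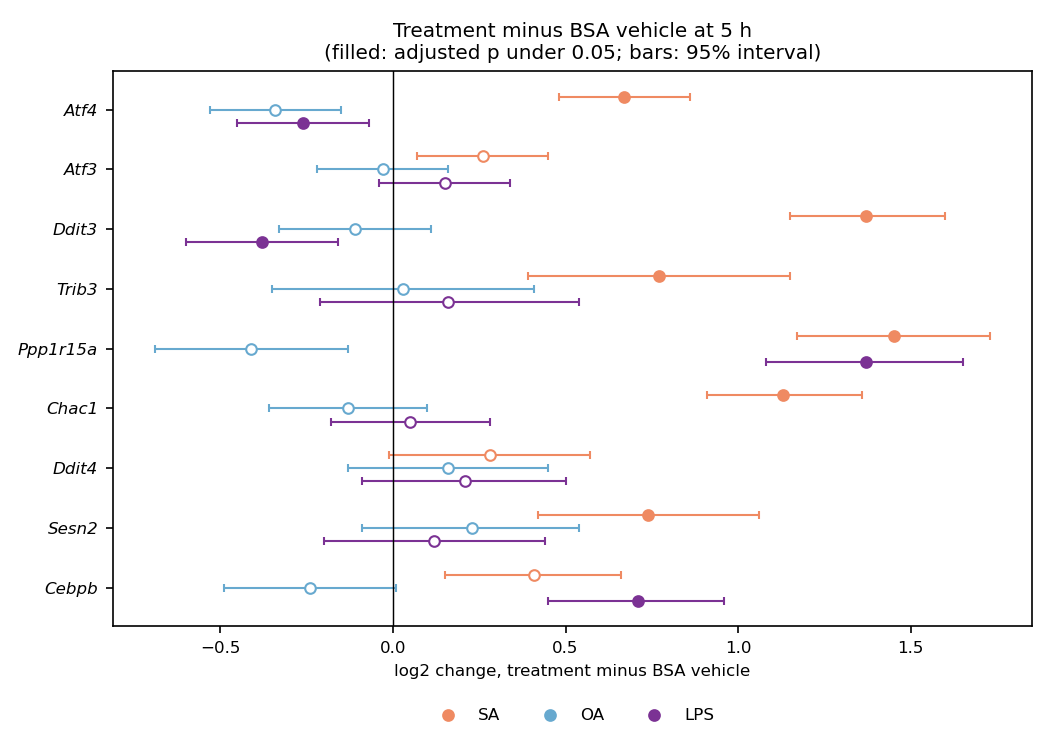
Log2 change of SA, OA and LPS minus BSA at 5 h for the 9 members (x axis), with 95% intervals as bars and filled points where the adjusted p was under 0.05. SA points lay to the right for Ddit3, Chac1, Trib3, Sesn2 and Atf4, SA and LPS points lay together for Ppp1r15a, and no OA point was filled.

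The times were compared within each acid. In SA, 3 of 9 members were higher at 20 h than at 5 h and none was lower, against 6.23% of all genes higher and 6.57% lower. Ddit3 rose by 0.88 (SE 0.10, adjusted p = 3.96e-07), Trib3 by 0.67 (SE 0.17, adjusted p = 0.00706) and Ppp1r15a by 0.43 (SE 0.13, adjusted p = 0.0239). Atf4 was at 0.12 (95% interval -0.05 to 0.30), Sesn2 at 0.37 (0.07 to 0.66, adjusted p = 0.103), Cebpb at -0.29 (adjusted p = 0.11) and Chac1 at -0.28 (-0.49 to -0.07, adjusted p = 0.0751). The Ppp1r15a call ended without replicate 1 or 2 of 5 h SA (0.0639 and 0.0858) or without replicate 1 or 3 of 20 h SA (0.0751 and 0.101), and Trib3 missed in the fit of these groups alone (0.0535). Without replicate 2 of 20 h SA 4 members passed, the added one being Sesn2 (0.47, adjusted p = 0.0336), which also passed without replicate 1 of 5 h SA (0.0463) and with array weights (0.0324). Chac1 was lower at 20 h with quantile normalization (-0.29, adjusted p = 0.0469). Ddit4 was lower at 20 h once replicate 1 of 20 h SA was left out (-0.38, adjusted p = 0.0235).

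In OA, 1 of 9 members was higher at 20 h and 1 was lower, against 2.58% of all genes higher and 1.8% lower. Ddit3 rose by 0.44 (SE 0.10, adjusted p = 0.00777), so it was higher at the later time in both acids. Cebpb fell by 0.40 (SE 0.11, adjusted p = 0.043). The Cebpb call ended in 10 of 18 alternatives, among them leaving out any 1 of the 5 h OA arrays (adjusted p = 0.077, 0.0766, 0.101 and 0.077 for replicates 1 to 4) or replicate 2, 3 or 4 of 20 h OA (0.0775, 0.109 and 0.169). Without a 20 h vehicle, time in culture and time with the acid cannot be told apart.

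**Figure D4:**
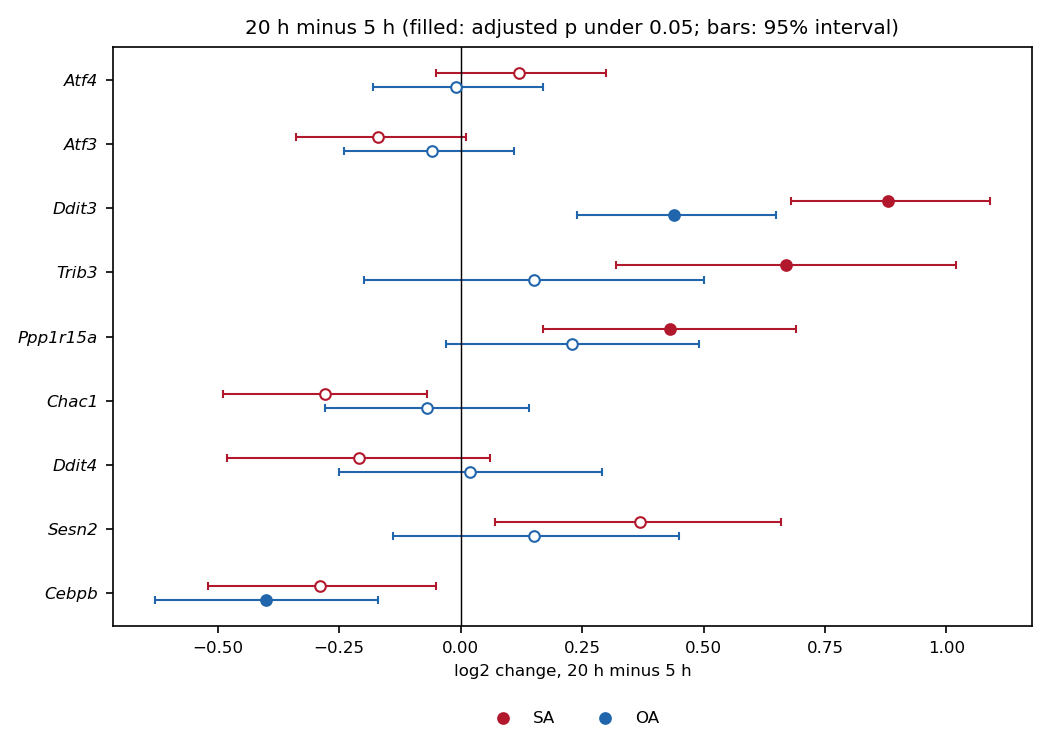
Log2 change of 20 h minus 5 h for the 9 members (x axis), in SA and in OA, with 95% intervals as bars and filled points where the adjusted p was under 0.05. Ddit3 was filled in both acids, Trib3 and Ppp1r15a in SA, and Cebpb lay to the left in OA.

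Other genes of the pathway were described from lists chosen with earlier results of these data known. Of 41 other ATF4 and CHOP targets, 20 rose and 2 fell in SA over OA at 20 h, against 7.72% of all genes higher and 8.95% lower, with a median log2 change of 0.31, against 0.03 over all genes. Without replicate 2 of 20 h SA, 21 rose and 2 fell. At 5 h 15 rose and 2 fell, against 3.3% of all genes higher and 2.37% lower, with a median of 0.30, against 0.01, and 11 rose and none fell in the fit of these groups alone. At 20 h Slc7a11, the cystine transporter, rose by 3.53 (SE 0.11, adjusted p = 9.29e-17), Dnajb9, an endoplasmic reticulum chaperone better known as a target of XBP1, by 1.71 (SE 0.10), Sqstm1, an autophagy receptor, by 1.67 (SE 0.08) and Nupr1, a stress-induced chromatin protein, by 1.47 (SE 0.11). Slc7a11 averaged 8.95 in 20 h SA, against 5.42 in 20 h OA, and 8.50 in 5 h SA, against 6.91 in 5 h OA. It was lower at 20 h than at 5 h in OA, by a change of -1.49 (SE 0.11), and higher in SA, by 0.45 (SE 0.11), so most of the widening of its gap lay in OA. At 5 h Slc7a11 rose by 1.59 (SE 0.11), Herpud1, which serves the degradation of misfolded endoplasmic reticulum proteins, by 1.5 (SE 0.11), Sqstm1 by 1.33 (SE 0.08) and Asns, asparagine synthetase, by 1.26 (SE 0.10). In SA over BSA 13 of the 41 rose and none fell, against 1.94% of all genes higher and 1.39% lower. In LPS over BSA 7 rose and 4 fell, against 9.22% of all genes higher and 13.2% lower, so the falls were no more frequent than among all genes. In OA over BSA 0 of 41 passed by limma, against 0.0702% of all genes, and 2 of 41 had an unadjusted p under 0.05, against 5.66% of all genes. Slc7a11 (2.50, SE 0.12) and Nupr1 (2.06, SE 0.12) rose in LPS over BSA. Ddit3 and Atf4 mRNA passed as lower there, but these calls ended in 3 and 6 of 17 alternatives. Sqstm1 and Slc7a11 are also known targets of the oxidative stress factor NRF2.

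Upstream, 6 of 15 genes for eIF2alpha kinases, phosphatases and eIF2 subunits rose and 2 fell in SA over OA at 20 h, against 7.72% of all genes higher and 8.95% lower. Without replicate 2 of 20 h SA, 7 rose and 1 fell, and 4 rose and 1 fell without replicate 1 or 4 of 20 h OA or replicate 3 of 20 h SA. At 5 h 2 rose and none fell, against 3.3% of all genes higher and 2.37% lower, and in 11 of 18 alternatives only 1 passed, among them leaving out any 1 array of 5 h OA or replicate 1 or 4 of 5 h SA. Eif2s2, an eIF2 subunit, was near the threshold there (0.29, adjusted p = 0.0499). At 20 h Dnajc3, an inhibitor of eIF2alpha kinases and a chaperone, rose by 1.13 (SE 0.08, adjusted p = 4.37e-11), Impact, an inhibitor of the amino acid sensor GCN2, by 0.99 (SE 0.10), Eif2b4, an eIF2B subunit, by 0.50 (SE 0.14) and Eif2ak3, the endoplasmic reticulum kinase PERK, by 0.49 (SE 0.12). Eif2ak2, the kinase PKR, rose by 1.91 (SE 0.09) in LPS over BSA, where 4 of the 15 rose and 5 fell, against 9.22% of all genes higher and 13.2% lower (3 and 2 without replicate 2 of BSA), and Ppp1r15b, the constitutive partner of the same phosphatase that Ppp1r15a serves, rose by 0.92 (SE 0.10). Of 25 other leucine zipper factors, 9 rose and none fell in SA over OA at 20 h, with and without replicate 2 of 20 h SA, against 7.72% of all genes higher and 8.95% lower. At 5 h 5 rose and none fell, against 3.3% higher and 2.37% lower, and 3 rose in the fit of these groups alone. Nfil3, a circadian and immune repressor, rose by 1.5 (SE 0.14) at 20 h and 1.02 (SE 0.14) at 5 h, and Atf5, a relative of ATF4, by 0.89 (SE 0.09) and 0.52 (SE 0.09). In LPS over BSA 8 of the 25 rose and 4 fell, against 9.22% of all genes higher and 13.2% lower. Batf2 (2.76, SE 0.12), Jdp2 (2.18, SE 0.15) and Cebpd (1.23, SE 0.13) rose, and Cebpa fell by 1.41 (SE 0.11).

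The genes whose pattern over the 6 group means was most like that of Ddit3, by the root mean square difference of mean-centred log2 levels, were Mgll (0.283), a monoacylglycerol lipase, Dio2 (0.295), a thyroid hormone deiodinase, Gsta3 (0.345), a glutathione transferase, Bhlhe41 (0.349), a circadian repressor, and Gm14461 (0.352). Among 19937 other genes, Trib3 ranked 21 (0.454), Atf4 48 (0.533), Sesn2 87 (0.572), Chac1 91 (0.574) and Ppp1r15a 753 (0.762), whereas Atf3 ranked 5448, Ddit4 11194 and Cebpb 16464, and the median difference of all genes was 0.93. This is a description over 6 points whose arrays were also used above, and the measure depends on the size of a change as well as its shape. For Atf3, the nearest were Noxred1 (0.02), Tsr3 (0.022), Ngdn (0.026), Lsg1 (0.028) and Erc2 (0.029), against a median of 0.165 over all genes. Group means lay at 3.07 to 3.40 for Noxred1 and 2.29 to 2.59 for Erc2, below all array medians. Those of Atf3 spanned only 0.36, so genes that barely vary lie near it by this measure.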

How the data were processed

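The authors deposited log2 expression values per probe set for 23 arrays, which the submitters' processing notes attribute to RMA (the notes also name limma, without a role). Versions and the genome build are not given in the sources used here. The probe table gave 1 symbol for 21789 of 35556 probe sets, several for 1621 and none for 12146. The probe set of highest mean was taken per gene, which gave 19938 genes. A mean per group was fitted with limma 3.58.1 in R 4.3.3 over all 23 arrays, with empirical Bayes moderation, two-sided p-values, Benjamini-Hochberg adjustment over all genes of each of 9 comparisons and a threshold of 0.05. The same code was tested on simulated data. No 2 arrays were identical, and the number of arrays limits the precision. The members and gene lists were chosen with earlier results of these data known. Up to 4 called genes per list and comparison with the largest change were eligible to be named. Gene positions and promoters are RefSeq's, GRCm38.p6. Python and pandas made the tables. Alternatives covered robust moderation with a variance trend, median centring, quantile normalization, array weights, no genes from the dimmest 25%, other probe set choices, a fit of only the groups compared, each array left out, and a block on replicate number.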

Additional observations from a re-analysis of the deposited data

Results flagged for a closer look

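In the 45 groups of 4 arrays among the members, 2 held an array far from the other 3, where chance gives about 1 in 20. Both were replicate 3 of 5 h OA, with Trib3 at 4.19, against 4.47 to 4.51 for the others, and Ppp1r15a at 4.92, against 5.44 to 5.51.

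Among genes of the pathway lists whose gap between SA and OA differed between 20 h and 5 h by the interaction term of limma, the up to 4 largest per list follow. The change, the SA minus OA gap at 20 h less that at 5 h, was positive for Slc7a11 (1.94, adjusted p = 9.91e-09), Dnajb9 (1.34), Dnajc3 (1.04), the glutathione synthesis genes Gss (1.03) and Gclm (0.99), Slc6a9 (0.91), Wars (0.91), Creb3l2 (0.89) and Atf6 (0.55). It was negative for the TGF-beta family gene Gdf3 (-1.0), Eif2ak2 (-0.56) and Sesn1 (-0.54). For Slc7a11 and Gclm the widening lay mostly in OA. Gclm averaged 9.74 in 20 h SA, against 7.91 in 20 h OA, and 9.52 in 5 h SA, against 8.68 in 5 h OA. By the same test 0 of the 9 members passed, with 2 at an unadjusted p under 0.05, against 14.6% of all genes.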

How the results depend on the processing

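Of 1503 values of the 81 member changes under alternatives, 1436 stayed on the same side of the threshold, 48 lost the call and 19 gained it. Each of the 9 members had 1 probe set, so the other probe set choices left their log2 changes as they were. Only their p-values could differ there, and those choices add little to this agreement. Among changes that passed in the main fit or in the alternative, none turned its direction. Changes that passed in neither could switch sign, as Trib3 did in OA over BSA (0.03 in the main fit, -0.09 to 0.11 under alternatives). Of 167 member counts, 150 were within 1.5 times. In the fit of the compared groups alone, 5 members changed in SA against OA at 5 h, 2 in LPS against BSA and 1 in OA at 20 h against 5 h. That last count was also 1 with all probe sets and with the replicate block. The interaction count was 1 with the variance trend and 1 with quantile normalization. Leaving out 1 array gave 0 to 2 members for the interaction (2 without replicate 3 of 5 h SA), 1 to 2 for OA over time and 2 to 4 for LPS against BSA. Of all genes, SA against OA at 5 h had 1131 calls and 660 with the groups alone. SA against BSA had 664, and 373 with the groups alone or 389 without replicate 2 of BSA. OA against BSA had 14, and 29 with the variance trend, 7 with the groups alone, and 9 and 7 without replicate 2 and 3 of BSA. Replicate numbers gave no clear pairing of the arrays. Of 55 pairs of one number across groups, 7 had a correlation of deviations over 0.1 (range -0.12 to 0.2, median 0.02), against a median of 0.0 for pairs of different numbers. By mean correlation, 9 of 23 arrays were closest to their own number. No chance level was computed for these counts, so they cannot exclude a partial pairing. With the replicate block, Atf3 in SA against OA at 5 h (adjusted p = 0.0533) and Cebpb in OA over time (0.0574) no longer passed.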

Other observations

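Of 17 other regulators of TORC1, most of them restraining it as Sesn2 and Ddit4 do, 2 rose and 2 fell in SA over OA at 20 h, with and without replicate 2 of 20 h SA, against 7.72% of all genes higher and 8.95% lower. These called counts were near the share of all genes. By limma 9 of 17 had an unadjusted p under 0.05, against 25.6% of all genes, and 7 of 17 did not overlap, against 20.2%. Sesn1, a sestrin known as a target of p53 and FoxO factors, fell by 1.02 (SE 0.09, adjusted p = 2.54e-09), and Castor2 fell by 0.63 (SE 0.12). Tsc1, a subunit of the TSC complex, rose by 0.49 (SE 0.10). In LPS over BSA, Sesn1 fell by 2.55 (SE 0.09, adjusted p = 1.75e-16), and 3 of the 17 rose and 5 fell, against 9.22% of all genes higher and 13.2% lower. Sesn1 thus moved opposite to Sesn2 in SA over OA.

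Of 10 Tribbles, CHAC and glutathione genes, 4 rose and 1 fell in SA over OA at 20 h, with and without replicate 2 of 20 h SA, against 7.72% of all genes higher and 8.95% lower. At 5 h 4 rose and 1 fell, against 3.3% higher and 2.37% lower. At 20 h the glutathione synthesis genes Gclm (1.83, SE 0.08), Gss (1.70, SE 0.11) and Gclc (1.56, SE 0.11) rose, as did Slc7a11, counted in this list too, and Chac1, whose product degrades glutathione. Trib1, a relative of Trib3, fell by 0.86 (SE 0.11, adjusted p = 1.29e-05) at 5 h. Of 14 relatives of GDF15 and its receptor genes, 1 rose and 2 fell at 20 h (1 and 1 without replicate 2 of 20 h SA), against the same 7.72% and 8.95%. At 5 h 0 passed by limma and 2 had an unadjusted p under 0.05, against 16.6% of all genes, so neither count stands clear of the share of all genes.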
